A study of Mus musculus with 5 samples.

Results

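Smarca4 binding was compared between XX mouse embryonic stem cells (mESCs) that carried a hairpin against Smarcc1 (Smarcc1.6) and XX mESCs that carried the non-silencing hairpin (Nons). The comparison was made in autosomal regions listed as peaks in XY cells, so that neither XX library had a part in choosing them. Peaks of the XY Nons and XY Smarcc1.6 lists on the 19 autosomes were merged where they overlapped by at least 1 bp, and regions with fewer than 20 input reads were kept. This gave 52069 regions of the 52412 merged regions in all. The 4 lists of the series together held 78911 peaks.

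The series profiled Smarca4 by ChIP-seq at day 4 of differentiation, with 1 library for each of XX Smarcc1.6, XX Nons, XY Smarcc1.6 and XY Nons, and 1 input library of chromatin that was not immunoprecipitated. All cells were C57/Bl6 mESCs weaned out of 2i, a medium that holds them in the naive state, and fixed with formaldehyde. Per the study's methods they were Xmas mESCs, which carry fluorescent reporter alleles in the X-linked gene Hprt, and hairpins were delivered by retrovirus with puromycin selection. The labels do not give the number of cell lines behind a library. Their antibody field holds the target of the hairpin, and the Smarca4 antibody is known from the study's methods. The study's reporting form names the input file for Nons cells, without their sex, and this input served for both XX libraries. Smarcc1 transcript and protein were not measured in these files, so the depletion in these cells has no check here. Since each side held 1 library, every ratio below describes 2 libraries and no test between conditions could be made. Each interval is a 95% interval for the sampling of reads alone, without biological or technical variation.

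Smarca4, also called Brg1, is an ATPase that powers the BAF (SWI/SNF) complex, which slides and evicts nucleosomes at promoters and enhancers. Smarcc1 (BAF155) is a scaffold subunit that helps to hold the complex together and to keep its other subunits stable, and in embryonic stem cells the complex carries Smarcc1 rather than its paralogue Smarcc2 for the most part. The complex helps to keep pluripotent cells in their state and to open chromatin for the genes used as they differentiate.

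The hairpins are shown because they are the sole designed difference between the cells compared. Each was an oligonucleotide of 97 bases, with the 22 bases of the guide strand in capitals after a loop of 19 bases that the oligonucleotides share.
Smarcc1.6: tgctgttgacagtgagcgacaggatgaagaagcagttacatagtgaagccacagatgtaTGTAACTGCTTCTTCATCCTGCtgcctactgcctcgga
Nons: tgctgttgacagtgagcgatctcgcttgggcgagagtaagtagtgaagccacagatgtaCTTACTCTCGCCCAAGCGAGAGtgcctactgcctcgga
The reverse complement of the Smarcc1.6 guide matched 5 transcripts without a mismatch, all of Smarcc1. The site lies at chr9:110177472-110177493 (GRCm38, plus strand), within exon 13 of the principal transcript, in coding sequence. The Nons guide matched no transcript of the same annotation.

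The XX Smarcc1.6 library had the fewer usable reads. Its depth in uniquely mapped reads was 5.99% of that of the input, against 11.6% for the XX Nons library. Per the study's reporting form, the raw reads of these libraries were similar in number, and only a small share of the reads of either XX library mapped uniquely. Deposited values had been scaled to input depth, so that 1 read counted 16.7 units in XX Smarcc1.6 and 8.60 units in XX Nons. A region held a mean of 0.908 reads in XX Smarcc1.6 and 2.77 reads in XX Nons, with medians of 1 read and 2 reads. In XX Smarcc1.6, 24950 regions (47.9%) had 0 reads, and in XX Nons 6452 regions (12.4%) had 0 reads. Both XX libraries were at 0 in 3467 regions. With so few reads, a single region says little and the values below are sums over groups of regions.

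Smarca4 signal was lower in XX Smarcc1.6 than in XX Nons over the regions as a whole. The sums were 47258 reads in XX Smarcc1.6 and 144012 reads in XX Nons, which after scaling averaged 15.2 units per region in XX Smarcc1.6 and 23.8 units per region in XX Nons. The ratio of scaled signal was 0.637 (interval 0.631 to 0.644). Relative to the input reads of the same regions, signal was 3.83-fold in XX Smarcc1.6 and 6.02-fold in XX Nons. Input reads had a part in choosing the regions, through the peak calls and the limit of 20, so these folds are raised by the choice. In bins of input reads, which form the denominator, the folds fall by construction. They were 13.2-fold in XX Smarcc1.6 and 21.2-fold in XX Nons at 1 input read. In regions with 10 to 19 input reads they were 1.79-fold in XX Smarcc1.6 and 2.70-fold in XX Nons. With the input subtracted from both sums, the ratio was 0.565.

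Scaled signal in XX Smarcc1.6 was at most 0.5 times that in XX Nons in 26239 regions, 50.4% of all, and at least 2 times as high in 6382 regions, 12.3% of all. Depth enters these shares, since 21483 of the 26239 lower regions had 0 reads in XX Smarcc1.6 and at least 1 in XX Nons. They are given as the background against which the shares of gene classes below are to be read.

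The lower signal was spread evenly over the autosomes. The 19 chromosome ratios averaged 0.636 ± 0.0184 (SD over chromosomes), with the lowest, 0.600 (interval 0.573 to 0.629), on chromosome 9, which carries Smarcc1 itself, and the highest, 0.671 (0.638 to 0.706), on chromosome 6. The intervals of 17 chromosomes included the ratio over all regions. Chromosome 9 lay below it and 1 other, chromosome 6, above it. The order of chromosomes depended on which XY list supplied the regions. On chromosome 11 the ratio was 0.601 (0.559 to 0.645) in regions listed only in XY Smarcc1.6 and 0.679 (0.652 to 0.707) in regions listed only in XY Nons. Of 95 windows of 10 Mb with at least 200 regions, all 95 had a ratio under 1, with a median of 0.638 and a range of 0.508 to 0.738, and the intervals of 91 included the ratio over all regions. The lowest window was at 30 to 40 Mb of chromosome 1, where 186 reads were counted in XX Smarcc1.6 and 711 in XX Nons.

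**Figure D1:**
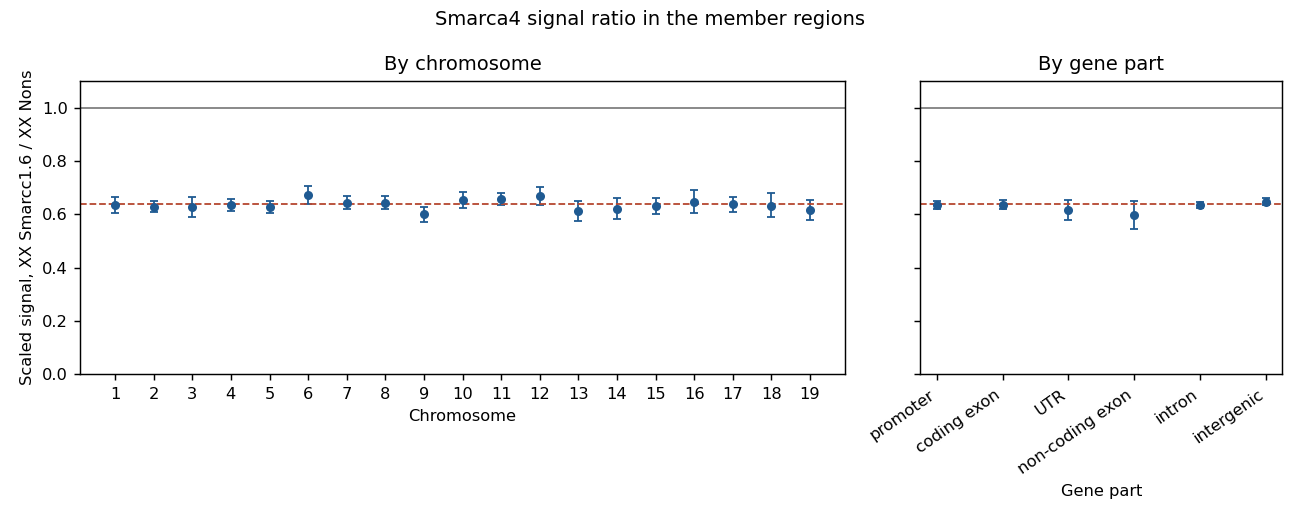
Scaled Smarca4 signal in XX Smarcc1.6 divided by that in XX Nons (vertical axis, no unit), by chromosome on the left and by gene part on the right. Points are ratios of summed signal, bars are 95% counting intervals, the dashed line is the ratio over all regions (0.637) and the grey line is 1. All points lie between 0.596 and 0.671.

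Over all GC contents, the ratio at promoters was close to that in other parts of the genome. In the 10808 regions within 1000 bp of a transcription start site the ratio was 0.634 (0.620 to 0.648), from 10191 reads in XX Smarcc1.6 and 31213 reads in XX Nons. It was 0.637 in 7570 coding exon regions, 0.637 in 18565 intronic regions and 0.647 (0.633 to 0.661) in 12868 intergenic regions. The smaller groups had 0.615 (0.578 to 0.654) in untranslated exons and 0.596 (0.546 to 0.649) in exons of non-coding transcripts, and their intervals also included 0.637. At 45 to 50% GC, the 685 promoter regions were at 0.545 (0.489 to 0.607), below introns at 0.672 (0.640 to 0.706) and intergenic regions at 0.693 (0.655 to 0.734). The bins with more promoters did not show this order. At 50 to 55% GC, 3060 promoter regions were at 0.665, introns at 0.646 and intergenic regions at 0.660. At 55 to 60% GC, 4643 promoter regions were at 0.614, introns at 0.604 and intergenic regions at 0.605. Level over input was lowest at promoters in XX Nons, at 5.67-fold, against 6.45-fold in coding exons. Input, the denominator, was highest at promoters, at 4.38 reads per region, against 3.75 in introns. Scaled XX Nons signal itself was not lowest there. It was 24.8 units per region at promoters, 22.8 in introns and 22.2 in intergenic regions. Exons of non-coding transcripts were also below promoters, while coding exons, at 27.2 units, and untranslated exons were above them.

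Among promoters, those of protein-coding genes had a ratio of 0.637 (8560 regions) and those of lincRNA genes 0.606 (0.539 to 0.680, 476 regions). Promoters of miRNA genes were at 0.560 (0.481 to 0.650, 256 regions), those of unverified transcripts (TEC) at 0.526 (0.429 to 0.640, 175 regions) and those of processed transcripts at 0.761 (0.620 to 0.931), and all these intervals included 0.637. Over distance from a start site, ratios stayed between 0.630, in regions that span a start site, and 0.649, in regions 20001 to 50000 bp away. Region width made as little difference, from 0.630 in regions of 300 bp to 0.653 (0.622 to 0.685) in regions of 750 bp or more.

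Whether the reduction depended on how strongly a region was bound was examined with levels taken from different libraries. By XX Nons reads, the ratio was 1.57 at 1 read, 0.830 at 2 reads, 0.585 at 3 reads and 0.293 (0.279 to 0.307) at 8 to 11 reads. This order is built in, because XX Nons reads also form the denominator. By XX Smarcc1.6 reads, which form the numerator, the ratio ran the other way, from 0.703 at 1 read to 2.75 (2.50 to 3.02) at 6 to 7 reads. Neither order held in the highest bins, where the ratio was 1.43 (1.14 to 1.80) in 15 regions with 8 to 11 XX Smarcc1.6 reads and 0.794 (0.630 to 0.995) in 8 regions with 20 or more XX Nons reads. By XY Nons reads, which enter neither side, the ratio was nearly flat. It was 0.690 (0.645 to 0.737) at 1 read, 0.622 (0.601 to 0.643) at 4 to 5 reads, 0.635 at 8 to 11 reads and 0.632 (0.588 to 0.678) at 20 reads or more. Regions with 0 XY Nons reads had the highest value on this scale, 0.741 (0.668 to 0.821, 830 regions). By XY Smarcc1.6 reads, 61 regions with at least 20 reads had 0.787 (0.677 to 0.912), and the bins below stayed between 0.616 and 0.653.

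**Figure D2:**
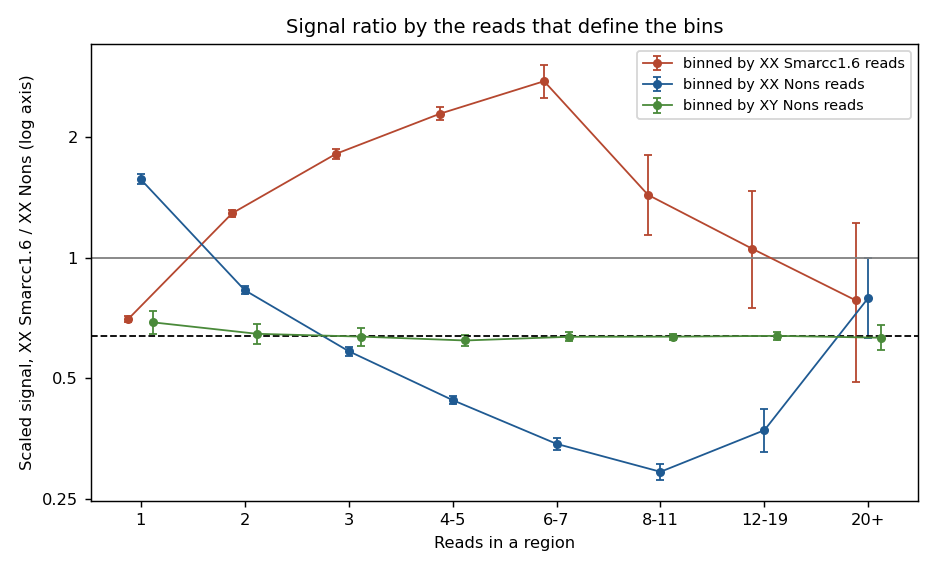
Ratio of scaled signal, XX Smarcc1.6 over XX Nons (vertical log axis, no unit), in bins of reads per region (horizontal axis), with bins set by XX Smarcc1.6, XX Nons or XY Nons reads. Bars are 95% counting intervals and the dashed line is 0.637. Up to 6 to 7 reads, bins set by XX Smarcc1.6 climb to 2.75 and bins set by XX Nons decline to 0.344, while bins set by XY Nons stay between 0.622 and 0.690.

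The same selection was seen with the XX peak lists. A peak of the XX Nons list overlapped 3909 regions, and there the ratio was 0.314 (0.304 to 0.324). A peak of the XX Smarcc1.6 list overlapped 362 regions, and there the ratio was 2.47 (2.30 to 2.65). In the 49 regions with a peak in both XX lists it was 1.07 (0.931 to 1.22), and in the 47847 regions with neither it was 0.691 (0.684 to 0.699). In the XX lists' own autosomal peaks the effect of the choice was wider still, with 4.88 in 2690 XX Smarcc1.6 peaks and 0.226 in 20887 XX Nons peaks. Which XY list held the region mattered little, with 0.648 (0.634 to 0.661) for XY Smarcc1.6 only, 0.632 (0.625 to 0.640) for XY Nons only and 0.650 (0.623 to 0.678) for both. For comparison, the XY pair was measured in 23408 regions of the XX lists chosen in the mirrored way, and XY Smarcc1.6 signal was 0.984 of XY Nons signal. The sexes were compared in different regions here, and the difference between them was not tested.

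Base composition went with the level over input in both XX libraries and, at its extremes, with the ratio. Level over input was highest at 55 to 60% GC, at 4.42-fold in XX Smarcc1.6 and 7.26-fold in XX Nons, and under 40% GC it was 1.58-fold in XX Smarcc1.6 and 2.28-fold in XX Nons. Input, the denominator, also differed, with 3.76 reads per region at 55 to 60% GC and 6.79 under 40% GC. Scaled XX Nons signal was 27.3 units per region at 55 to 60% GC and 15.5 under 40% GC. The ratio was lowest where level over input was highest, 0.609 (0.600 to 0.619) at 55 to 60% GC. It was 0.705 (0.657 to 0.757) at 40 to 45% GC and 0.748 (0.674 to 0.830) at 65 to 70% GC. At 70% GC or more it was 1.27, with a lower interval bound of 1.01, from 129 reads in XX Smarcc1.6 and 197 reads in XX Nons over 160 regions, of which 147 were promoters. That was the sole GC bin in which XX Smarcc1.6 was not below XX Nons, and no region in it held more than 5 XX Smarcc1.6 reads. The part of library preparation in these differences was not tested.

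**Figure D3:**
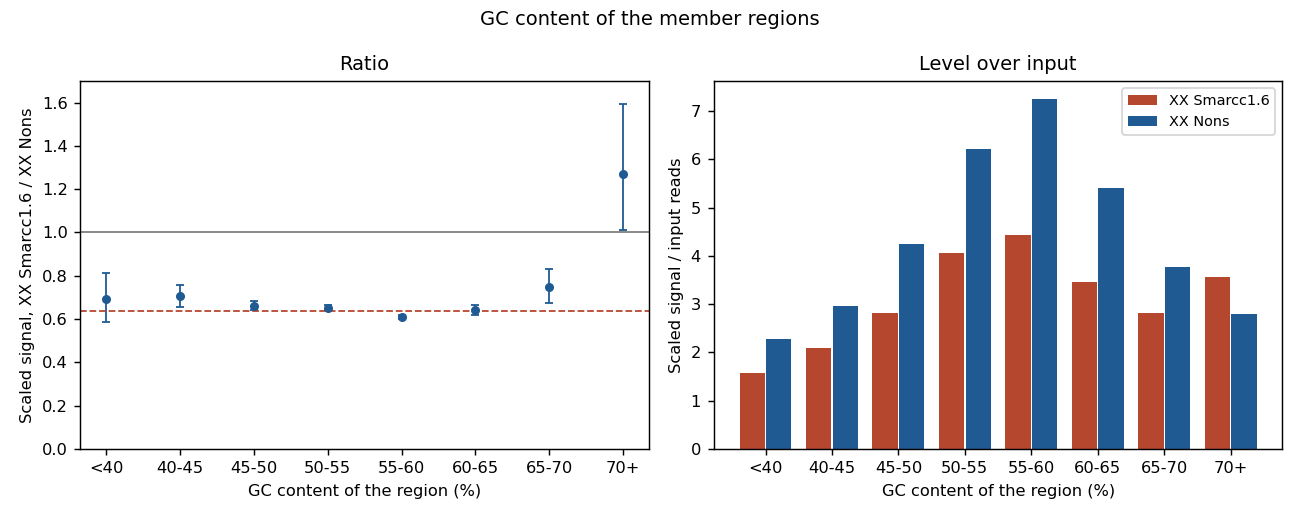
Left, ratio of scaled signal, XX Smarcc1.6 over XX Nons, with 95% counting intervals, by GC content of the region; the dashed line is 0.637 and the grey line 1. Right, scaled signal divided by input reads in XX Smarcc1.6 and XX Nons. Level over input peaks at 55 to 60% GC in both libraries, and the ratio passes 1 only in the 160 regions at 70% GC or more.

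The ratio was compared between regions with and without short sequence words. The central 300 bases of each region, and as background 31396 RefSeq promoters of autosomal genes of the same length (GRCm38.p6), were searched on both strands. The GC box (GGGCGG) was present in 11.3% of regions and 36.0% of promoters, and the ratio was 0.640 with it and 0.637 without it. The AP-1 word (TGANTCA) was present in 7.16% of regions and 7.84% of promoters, with 0.659 (0.633 to 0.685) where present and 0.636 where absent. The E box (CAGCTG) was present in 26.2% of regions and 16.3% of promoters, with 0.630 where present and 0.640 where absent. The ETS core (CCGGAAG), in 2.75% of regions and 9.0% of promoters, went with 0.688 (0.647 to 0.731), against 0.636 (0.629 to 0.643) without it. The octamer (ATGCAAAT), a word bound by Pou5f1, was in 315 regions (0.605%) and 1.75% of promoters, with 0.742 (0.643 to 0.855) where present and 0.637 where absent. The GATA word (AGATAA) was in 7.65% of regions and 11.2% of promoters, with 0.635 where present. CCAAT was in 26.7% of regions and 37.3% of promoters, with 0.640 where present. The dinucleotide CG was in 98.1% of regions and 94.8% of promoters, and the ratio was 0.636 (0.629 to 0.643) with it and 0.716 (0.662 to 0.774) in the 984 regions without it. The ratio did not fall steadily with the number of CG. It was 0.619 (0.608 to 0.630) at 6 to 9 CG and 0.737 (0.686 to 0.791) in the 1279 regions with 20 or more. CG lies within the GC box and the ETS core, so those searches overlap.

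The regions with the most reads held long tandem repeats more often than regions in general. A window of 300 bases without any repeated word has 291 different words of 10 bases, and 602 regions (1.16%) had 200 or fewer. Of the 20 regions with the most reads, 4 were of this kind when ranked by XX Smarcc1.6, 6 by XX Nons and 6 by the XY libraries together. The 92 windows with 100 or fewer different words averaged 25.2 units in XX Smarcc1.6 and 29.3 units in XX Nons, a ratio of 0.862 (0.701 to 1.06), whereas the 37203 windows with no repeated word had 0.632. Relative to input, the 92 windows were lower, at 3.69-fold in XX Smarcc1.6 and 4.27-fold in XX Nons. Windows with no repeated word were at 4.09-fold in XX Smarcc1.6 and 6.47-fold in XX Nons. Central windows of some named regions are shown to let the repeats be seen, with that of Slc16a3, which is not of this kind, beside them. They are in GRCm38 plus-strand letters, with the most frequent word of 10 bases in capitals.
chr7:79954951-79955250, intergenic: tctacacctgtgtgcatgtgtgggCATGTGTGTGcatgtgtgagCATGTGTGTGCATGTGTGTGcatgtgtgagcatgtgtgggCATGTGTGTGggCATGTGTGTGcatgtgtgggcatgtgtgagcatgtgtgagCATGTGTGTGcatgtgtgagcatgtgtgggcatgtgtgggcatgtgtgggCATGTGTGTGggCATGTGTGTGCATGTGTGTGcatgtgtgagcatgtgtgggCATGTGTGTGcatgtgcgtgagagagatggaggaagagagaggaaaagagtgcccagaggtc
chr4:118076701-118077000, St3gal3 intron: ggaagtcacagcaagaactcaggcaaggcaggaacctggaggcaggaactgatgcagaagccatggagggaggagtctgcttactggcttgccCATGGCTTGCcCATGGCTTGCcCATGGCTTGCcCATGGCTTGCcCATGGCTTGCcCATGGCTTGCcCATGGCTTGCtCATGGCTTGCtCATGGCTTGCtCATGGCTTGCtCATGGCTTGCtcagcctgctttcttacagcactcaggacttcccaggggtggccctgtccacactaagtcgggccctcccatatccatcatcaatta
chr12:3973201-3973500, Efr3b: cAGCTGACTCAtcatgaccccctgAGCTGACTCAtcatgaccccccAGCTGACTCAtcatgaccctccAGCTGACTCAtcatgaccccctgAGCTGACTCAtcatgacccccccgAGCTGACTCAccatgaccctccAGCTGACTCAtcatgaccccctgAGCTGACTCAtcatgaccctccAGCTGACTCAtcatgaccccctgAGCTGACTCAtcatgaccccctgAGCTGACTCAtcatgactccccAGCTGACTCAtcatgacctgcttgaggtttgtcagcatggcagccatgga
chr7:19064176-19064475, Rsph6a intron: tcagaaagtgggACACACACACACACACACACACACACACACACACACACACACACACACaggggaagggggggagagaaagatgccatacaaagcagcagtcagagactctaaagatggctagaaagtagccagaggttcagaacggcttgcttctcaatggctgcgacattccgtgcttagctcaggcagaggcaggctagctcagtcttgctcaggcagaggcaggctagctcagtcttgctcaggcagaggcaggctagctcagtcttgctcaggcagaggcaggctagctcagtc
chr11:120953776-120954075, Slc16a3 promoter: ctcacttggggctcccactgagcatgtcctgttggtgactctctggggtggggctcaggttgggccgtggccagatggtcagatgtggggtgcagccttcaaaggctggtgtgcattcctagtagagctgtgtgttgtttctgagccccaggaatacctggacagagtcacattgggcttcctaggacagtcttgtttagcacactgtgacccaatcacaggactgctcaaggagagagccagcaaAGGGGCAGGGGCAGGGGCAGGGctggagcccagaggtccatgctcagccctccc
The capitals are a word that occurs 10 times in the intergenic window, 11 times at St3gal3, 12 times at Efr3b and 20 times at Rsph6a, but 3 times at Slc16a3, whose 284 different words make it the least repetitive window shown. The Efr3b window has 0 coding bases, although the region it comes from reaches a coding exon, and its repeat carries the AP-1 word and the E box, found 12 and 6 times.

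The intergenic region on chromosome 7 held the most reads of all in both XX libraries. It had 29 reads in XX Smarcc1.6 and 72 reads in XX Nons, or 484 and 619 scaled units, a ratio of 0.782 (0.490 to 1.22), with 13 input reads and 75.2% of its bases masked as repeats. An intergenic region on chromosome 12, 11994 bp from Wdr20, had 18 and 47 reads, a ratio of 0.744 (0.407 to 1.30). St3gal3, which encodes a sialyltransferase, had 8 reads in XX Smarcc1.6 and 33 reads in XX Nons at its intronic region. The ratio was 0.471 (0.188 to 1.04). In 3 of the 10 regions away from promoters with the most XY reads, the scaled value was higher in XX Smarcc1.6 than in XX Nons, among them a region near Mrps31 with 14 reads against 22 reads and a region in the non-coding gene Gm47020 with 7 against 7. The ratio of the sums over the 10 regions was 0.829 (0.666 to 1.03).

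The 10 promoter regions with the most XY reads included regions at or within 1000 bp of 4 developmental regulators. At a region that spans the start site of the non-coding gene Gm27502 and lies within 1000 bp of Six3, a homeobox gene of the forebrain and eye, 2 reads were counted in XX Smarcc1.6 and 10 reads in XX Nons. Pax9, a paired-box gene of the pharyngeal pouches, teeth and skeleton, had 2 reads in XX Smarcc1.6 and 8 reads in XX Nons. A region at the start site of the non-coding gene Gm26973, within 1000 bp of Nkx2-1, a homeobox gene of thyroid, lung and ventral forebrain, had 6 and 12 reads, and Tfap2a, a regulator of neural crest and surface ectoderm, had 6 and 11. The last 2 were close to even after scaling, at 0.971 and 1.06. Among the others, Atg2a, a lipid transfer gene of autophagy, had 2 reads in XX Smarcc1.6 and 13 reads in XX Nons, and Vars, the valyl-tRNA synthetase, had 3 and 12. Tmem184a had 5 and 17 reads, Hdgfl2 2 and 11, Fbf1 3 and 8, and Wdr81 3 and 7. The 10 together had 34 reads in XX Smarcc1.6 and 109 reads in XX Nons, a ratio of 0.606 (0.400 to 0.898), and in 9 of the 10 scaled signal was lower in XX Smarcc1.6.

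**Figure D4:**
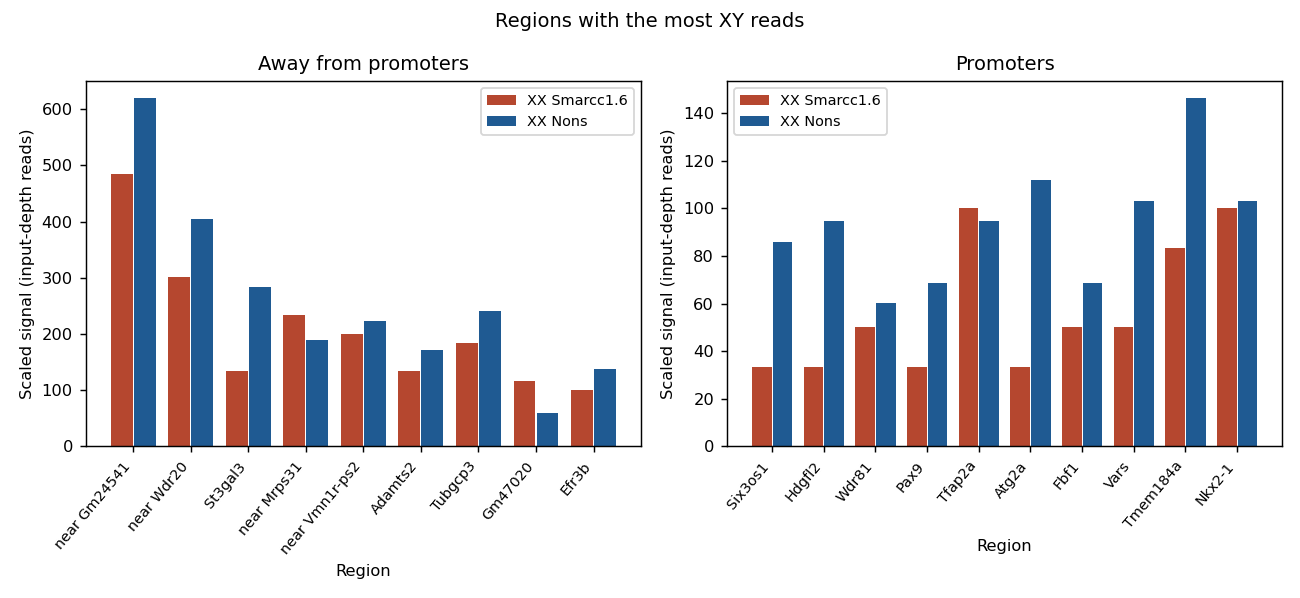
Scaled Smarca4 signal (input-depth reads, vertical axes of different range) in XX Smarcc1.6 and XX Nons for 9 of the 10 regions away from promoters (left) and the 10 promoter regions (right) with the most XY reads. Labels give a gene within 1000 bp of the region or, after "near", the gene of the nearest start site. Each bar is 1 library without replicates, and 1 read is 16.7 units in XX Smarcc1.6 and 8.60 units in XX Nons. XX Smarcc1.6 is the lower bar in 7 of the 9 regions on the left and 9 on the right.

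Regions picked by an XX library itself are given as a description. The 10 regions with the most XX Smarcc1.6 reads had 139 reads in XX Smarcc1.6 and 265 reads in XX Nons, a ratio of 1.02 (0.823 to 1.26). They took in an intron of Trim30a, a gene of the TRIM family, with 14 reads in XX Smarcc1.6 and 12 in XX Nons at 25.8% GC, and an intron of Adcy5, an adenylyl cyclase, with 11 and 10. They also held the promoter of Hjurp, the chaperone of the centromeric histone, with 10 and 21 reads, where 19 input reads placed it just inside the input limit. The 10 regions with the most XX Nons reads had 120 and 305 reads, a ratio of 0.764 (0.613 to 0.947). The sets shared 6 regions, and the intergenic region on chromosome 7 led both.

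Regions with 0 reads in XX Smarcc1.6 were also ranked by XX Nons reads, so the gap between the libraries is fixed by the choice and no fold is given. The intron of Rsph6a, a gene of the sperm flagellum, had 17 reads in XX Nons, and a region 3988 bp from Enpp7 had 16. The promoter region of Slc16a3, the lactate exporter induced by hypoxia, had 15 reads in XX Nons, and that of Atp6v0a2, a subunit of the proton pump of acidic organelles, had 14. Regions in Tecpr2, Cdc42ep1, Syngr1, Arhgef17 and Olfm2 had 13 reads each in XX Nons.

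Gene classes were compared by summing all regions in or within 1000 bp of their genes. The 27 classes had ratios between 0.421 and 0.802, with a median of 0.611, and all were under 1. The intervals of 26 classes included the ratio over all regions, and that of 1 class, formative and early differentiation genes, lay below it. The share of regions at least 2-fold lower was 40 to 61.5% per class, against 50.4% of all regions, and the share at least 2-fold higher was 4.55 to 23.5%, against 12.3% of all.

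**Figure D5:**
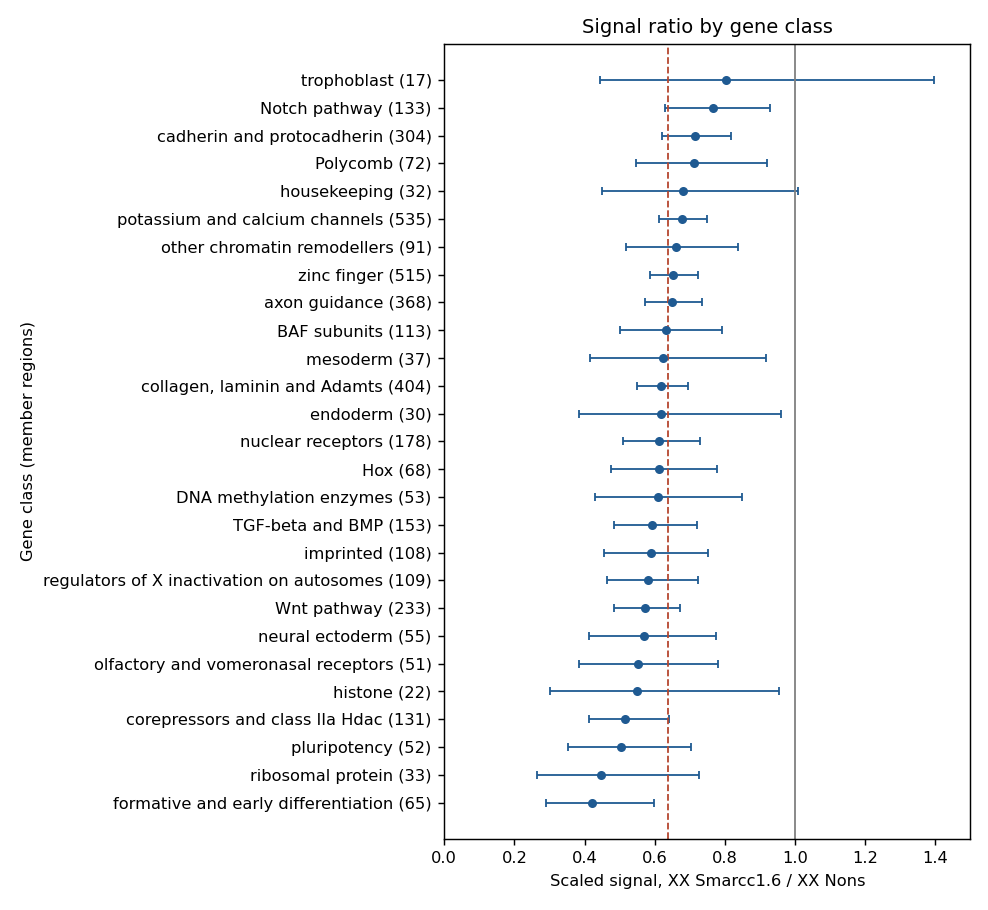
Ratio of scaled Smarca4 signal, XX Smarcc1.6 over XX Nons (horizontal axis, no unit), for 27 gene classes (vertical axis, number of regions in brackets), with 95% counting intervals. The dashed line is the ratio over all regions (0.637) and the grey line 1. The interval of the formative class, 0.290 to 0.598, is the single one that does not reach the dashed line.

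Genes of the formative state, which mESCs pass through after leaving the naive state, had 39 reads in XX Smarcc1.6 and 180 reads in XX Nons over 65 regions, a ratio of 0.421 (0.290 to 0.598). Of the 65 regions, 40 (61.5%) were at least 2-fold lower and 6 at least 2-fold higher, against 50.4% and 12.3% of all regions. Lef1, a transcription factor of Wnt signalling, had 12 regions with 3 reads in XX Smarcc1.6 and 37 reads in XX Nons. Without Lef1 the class was at 0.489 (0.329 to 0.709), and its interval included 0.637. Dnmt3a, a de novo DNA methyltransferase, had 13 reads in XX Smarcc1.6 and 45 reads in XX Nons, and Foxp1 had 10 and 34. Grhl2, a regulator of epithelial enhancers, had 1 and 14. At promoters of the class alone, 12 and 35 reads gave 0.666 (0.315 to 1.31). With 27 classes compared, and lists that share genes, this value is a description of the 2 libraries.

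Pluripotency genes had 44 reads in XX Smarcc1.6 and 170 reads in XX Nons, a ratio of 0.503 (0.352 to 0.704). Esrrb, an orphan receptor of the naive network, had 4 and 36 reads over 11 regions, 0.216 (0.0558 to 0.602), whereas Sall4, a zinc finger factor of the same network, had 10 and 19, a ratio of 1.02 (0.425 to 2.31). The list used for the class also held Tcf3, an E protein, with 9 reads in XX Smarcc1.6 and 43 reads in XX Nons. Without Esrrb the class was at 0.580 (0.397 to 0.831). The promoters of the whole class had 0.800 (0.496 to 1.26). The intervals of the lineage classes included the ratio over all regions, with 0.570 (0.413 to 0.776) for neural ectoderm, 0.624 (0.416 to 0.916) for mesoderm, 0.617 (0.385 to 0.961) for endoderm and 0.802 (0.444 to 1.40) for trophoblast. Pax7, a paired-box gene of dorsal neural tube and muscle, had 17 reads in XX Smarcc1.6 and 46 reads in XX Nons over 13 regions.

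Genes for chromatin proteins were close to the ratio over all regions. BAF subunit genes had 103 reads in XX Smarcc1.6 and 316 reads in XX Nons over 113 regions, a ratio of 0.633 (0.502 to 0.793), with 58 regions (51.3%) at least 2-fold lower, against 50.4% of all regions, and 11 (9.73%) at least 2-fold higher, against 12.3% of all. Arid1b, which encodes an ARID subunit of the complex, had 27 and 74 reads, and Bcl11b, a zinc finger subunit, 9 and 39. At BAF subunit promoters alone, 18 reads in XX Smarcc1.6 and 40 reads in XX Nons over 14 regions gave 0.874 (0.472 to 1.56). Other remodellers were at 0.661 (0.518 to 0.839) and Polycomb genes at 0.713 (0.548 to 0.921), with Phc2 at 12 reads in XX Smarcc1.6 and 53 reads in XX Nons and Pcgf2 at 8 and 18. Among DNA methylation enzymes (0.609, 0.429 to 0.850), Tet1, a 5-methylcytosine oxidase, had 1 and 16 reads, and Dnmt1, the maintenance methyltransferase, had 18 and 36, a ratio of 0.971 (0.519 to 1.76).

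Autosomal genes whose products take part in X inactivation, the subject of the study, had 107 reads in XX Smarcc1.6 and 358 reads in XX Nons over 109 regions, a ratio of 0.580 (0.463 to 0.722). Spen, the RNA-binding repressor recruited by Xist, had 6 reads in XX Smarcc1.6 and 47 reads in XX Nons, a ratio of 0.248 (0.0866 to 0.581). H2afy, which encodes macroH2A1, a histone variant of the inactive X, had 8 and 40. Without Spen the class was at 0.631 (0.499 to 0.792). At its promoters, 14 reads in XX Smarcc1.6 and 66 reads in XX Nons gave 0.412 (0.214 to 0.741) over 19 regions. Corepressors and class IIa Hdac genes were at 0.516 (0.412 to 0.642), with Hdac4 at 3 reads in XX Smarcc1.6 and 30 reads in XX Nons, Hdac5 at 10 and 46 and Ctbp2 at 17 and 38.

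Signalling classes spanned a similar range. Wnt pathway genes were at 0.572 (0.485 to 0.673), with the receptor gene Lrp5 at 19 reads in XX Smarcc1.6 and 89 reads in XX Nons, the transcription factor gene Tcf7l2 at 3 and 34, and the receptor gene Lgr6 at 19 and 38. Notch pathway genes had the highest ratio of the classes with more than 100 regions, 0.765 (0.628 to 0.929), with the receptor genes Notch1 at 18 reads in XX Smarcc1.6 and 52 reads in XX Nons and Notch2 at 21 and 59, the ligand gene Jag2 at 18 and 36, and the coactivator gene Maml3 at 10 and 40. TGF-beta and BMP genes were at 0.592 (0.483 to 0.721), with the ligand gene Bmp7 at 11 and 57 and the effector gene Smad3 at 18 and 46. Nuclear receptor genes were at 0.611 (0.509 to 0.730), where Ppard had 28 reads in XX Smarcc1.6 and 94 reads in XX Nons and Rxra had 23 and 46.

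Hox genes, which pattern the body axis, were at 0.611 (0.476 to 0.778) over 68 regions. By cluster, Hoxd on chromosome 2 had 22 reads in XX Smarcc1.6 and 46 reads in XX Nons (0.929, 0.532 to 1.58), and Hoxc on chromosome 15 had 16 and 69 (0.450, 0.244 to 0.784). Hoxa was at 0.543 (0.337 to 0.846) and Hoxb at 0.647 (0.394 to 1.03). The intervals of the 4 clusters overlapped. Single genes varied as widely, with Hoxd11 at 17 reads in XX Smarcc1.6 and 26 reads in XX Nons and Hoxa10 at 2 and 26. Imprinted genes were at 0.588 (0.457 to 0.751), with the potassium channel gene Kcnq1 at 15 and 72 reads and Igf2r, the receptor that clears Igf2, at 9 and 16.

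Genes of adhesion, matrix and excitability had many regions. Collagen, laminin and Adamts genes were at 0.619 (0.551 to 0.695) over 404 regions, potassium and calcium channel genes at 0.677 (0.612 to 0.749) over 535 and axon guidance genes at 0.648 (0.571 to 0.734) over 368. Cadherin and protocadherin genes were at 0.714 (0.621 to 0.819) over 304 regions, with Cdh23 at 64 reads in XX Smarcc1.6 and 134 reads in XX Nons (0.927, 0.678 to 1.26) and Cdh4 at 43 and 156 (0.535, 0.373 to 0.755). In axon guidance, Slit1, a repellent ligand, had 41 and 67 reads (1.19, 0.785 to 1.78), and Ephb2, an ephrin receptor, had 23 and 93 (0.480, 0.290 to 0.765). Zinc finger genes were at 0.652 (0.586 to 0.724). Within them Zfp423, a cofactor of Smad proteins, had 52 reads in XX Smarcc1.6 and 74 reads in XX Nons over 34 regions, a ratio of 1.37 (0.938 to 1.97).

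Classes that serve as controls had few regions. Housekeeping genes had 35 reads in XX Smarcc1.6 and 100 reads in XX Nons (0.680, 0.449 to 1.01), ribosomal protein genes 21 and 91 (0.448, 0.265 to 0.726) and histone genes 17 and 60 (0.550, 0.301 to 0.956). The histone class was not separate from the classes above. H2afy, also in the X inactivation class, held 11 of its 22 regions, with 8 reads in XX Smarcc1.6 and 40 reads in XX Nons. Olfactory and vomeronasal receptor genes, which are used by sensory neurons of the nose, had a region at 47 of 1739 genes and a ratio of 0.553 (0.385 to 0.781), from 43 reads in XX Smarcc1.6 and 151 reads in XX Nons. All 4 intervals included the ratio over all regions.

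Input depth within the limit of 20 reads had a slight relation to the ratio, with 0.617 (0.588 to 0.647) in regions with 0 input reads and 0.665 (0.638 to 0.692) in regions with 10 to 19. Just inside the limit, the 43 regions with 19 input reads had 63 reads in XX Smarcc1.6 and 149 reads in XX Nons, and just outside it the 25 regions with 20 had 24 and 94. Regions with more than 75% of their bases masked as repeats had 0.699 (0.656 to 0.745), against 0.635 in regions with none.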

How the data were processed

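Smarca4 ChIP-seq libraries of XX and XY mESCs and 1 input library were compared through 4 peak lists, 1 per ChIP library, with a value for every library in each peak. The deposited ChIP values are a signal that the authors scaled to input depth, and the deposited input values are whole read counts. The study's methods state single-end sequencing, adapter trimming and alignment to mm10 with removal of duplicates. Tools listed in the submitters' notes on processing were bcl2fastq, Bowtie2 and MACS2, without versions, and the study's reporting form gives another aligner, so the aligner is uncertain. Duplicates removed before counting lower the highest values most.

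All 315644 ChIP values were whole multiples of 1 step per library within 0.01 reads, and reads were recovered by dividing by that step. A merged region kept the values of its widest peak. Signal ratios are summed scaled XX Smarcc1.6 signal over summed scaled XX Nons signal, with exact conditional (Clopper-Pearson) 95% intervals on the reads. Reads are not independent molecules, so the intervals cover counting error only. With 1 library per side no count test was possible, so the plan held none. Gene parts came from GENCODE M21, GC content and repeat masking from GRCm38.p6, and promoter sequences from RefSeq on the same build. A region took the first part that fitted, in the order promoter, coding exon, untranslated exon, non-coding exon, intron and intergenic. Python 3.11.15, numpy 2.4.6, pandas 2.3.3, scipy 1.17.1, pysam 0.24.0 and matplotlib 3.10.9 were used. The ratio and its interval were tested on simulated reads.

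Named regions were the 10 promoter and the 10 other regions with the most XY reads, up to 3 per gene class by XY reads, and, as a description, the 10 with the most reads in each XX library and the 10 with the most XX Nons reads among those at 0 in XX Smarcc1.6. Genes within classes were named among the 5 with the most XY reads summed over their regions, a rule added after the values were seen, as were the windows of repeats. The members and lists were chosen with earlier results of these data known. Some genes and 1 region are not reported by name here, and sums over classes and sets include them.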

Additional observations from a re-analysis of the deposited data

How the results depend on the processing

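The ratio over all regions stayed under 1 in 11 of 11 alternatives, from 0.543 to 0.691. It was 0.662 with no input limit, 0.648 with the XY Smarcc1.6 list alone, 0.691 without regions that overlap an XX peak (an alternative chosen after seeing the data), 0.565 with input subtracted and 0.543 when scaled so that regions with 20 or more input reads had a ratio of 1. The other 6 alternatives stayed within the counting interval. The highest chromosome ratio was 0.708 with the XY Smarcc1.6 list alone. Within GC bins of 45 to 50, 50 to 55, 55 to 60 and 60 to 65%, values outside a gene part's own interval were 0.545, 0.665 and 0.614 at promoters in the first 3 bins, 0.673 in coding exons in the last, 0.674 and 0.472 in untranslated exons in the first and last, and 0.672, 0.604 and 0.651 in introns and 0.693, 0.605 and 0.619 between genes in all but the bin of 50 to 55%. The cause of these shifts was not tested. The ratio at 8 or more reads was 0.198 of that at 1 read by XX Nons reads, but 0.923 by XY Nons reads and 0.935 by both XX libraries, and it reversed to 1.69 by XX Smarcc1.6 reads, since the binning library is also a side of the ratio. Of 81 gene class alternatives, 70 stayed within the class's interval and 80 were under 1, the exception being housekeeping genes at 1.02 with under 5 input reads. Each side had 1 library, so variation between cultures is unknown. Most regions held under 3 reads in each XX library, so regions and single genes cannot be ranked by their ratio.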

Other observations

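Regions outside the input limit behaved otherwise. The 209 autosomal regions with 20 to 49 input reads had a ratio of 0.783 (0.705 to 0.869), the 21 with 50 to 199 had 0.950 (0.835 to 1.08), and the 13 with 200 or more had 1.30 (1.25 to 1.36), from 3347 reads in XX Smarcc1.6 and 4989 reads in XX Nons. Together these 243 regions had 3.23-fold signal over input in XX Smarcc1.6 and 2.75-fold in XX Nons.

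The 99 X-linked regions of the XY lists under the input limit had 70 reads in XX Smarcc1.6 and 228 reads in XX Nons, a ratio of 0.596 (0.449 to 0.783) whose interval included that of the autosomal regions. They averaged 11.8 scaled units in XX Smarcc1.6 and 19.8 in XX Nons, with 2.01 input reads per region, against 3.95 in the autosomal regions.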
